A study of Mus musculus with 2 samples.

Results

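The immunoglobulin constant regions and the J chain were examined in 2 scRNAseq libraries, 1 from h219-LLG-treated mice and 1 from control-treated mice. The gene set had 9 members, taken by symbol (Ighm, Ighd, Ighg1, Ighg2b, Ighg2c, Igha, Igkc, Iglc2 and Jchain). Jchain was the 1 member measured here, among 27998 genes in the count tables, and the other 8 were not analysed here. Heavy chain class, light chain use and class switching therefore carry no values in what follows, and every result is about Jchain and the cells that hold it.

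Both libraries came from live mouse CD45+ immune cells sorted from B16 melanoma tumors grown under the skin of C57bl/6j mice aged 6 to 8 weeks. In both groups the mice lacked their own LAIR1 (LAIR1-/-) and carried human LAIR1, a collagen-binding inhibitory receptor, as a transgene in blood cells through Vav-cre. h219-LLG is a humanized antibody that blocks human LAIR1, and the control mice received an isotype control antibody (Iso-ctrl). With 1 library in each group, and with the number of mice pooled in each not given in the sources used here, library and treatment cannot be told apart. No test or p-value is given. All intervals are 95% intervals of counting error only, and a UMI is not a wholly independent unit within 1 cell.

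The J chain is a small secreted protein that joins IgM into pentamers and IgA into dimers, and it is needed for their export across mucosal epithelium by the polymeric immunoglobulin receptor. Plasmablasts and plasma cells make it in large amounts. In mature B cells the gene is held low by Pax5, the B cell identity factor, and it comes on when Blimp-1 (Prdm1) and Xbp1 set up the secretory program. A B cell that becomes a plasma cell loses surface CD20 (Ms4a1) and Pax5, and gains syndecan-1 (Sdc1) and the survival receptor BCMA (Tnfrsf17).

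Jchain (ENSMUSG00000067149) lies on the minus strand of mouse chromosome 5 at chr5:88519809-88527891 in mm10, with 1 basic transcript of 4 exons in GENCODE. Its promoter is shown because it is the regulatory sequence of the 1 member measured. The RefSeq window of 250 bases upstream of the transcription start (GRCm38.p6, chr5:88527898-88528147, minus strand, 42% GC) reads 5′ to 3′ as follows, with the single ACGT match in capitals.
Jchain promoter: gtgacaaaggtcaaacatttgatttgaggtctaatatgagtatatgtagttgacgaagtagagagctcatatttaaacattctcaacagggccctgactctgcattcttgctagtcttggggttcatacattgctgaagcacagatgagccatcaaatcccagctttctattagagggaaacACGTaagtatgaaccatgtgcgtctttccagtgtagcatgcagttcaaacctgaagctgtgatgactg
ACGT, the core shared by elements of the unfolded protein response, began 68 bases before the start, and 26.9% of 32851 RefSeq promoter windows of this length held at least 1 match on either strand. The immunoglobulin octamer ATGCAAAT, found in heavy and light chain promoters, had 0 matches here against 1.60% of windows. GAAAG, contained in Blimp-1 sites, had 2 matches (51.5% of windows) and the E-box CANNTG had 3 (66.2% of windows). GAGGAA, the core of PU.1 sites, had 0 matches (23.3% of windows) and TGACGTGG had 0 (0.563% of windows). Both strands were searched, and these matches describe letters only.

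Barcodes were kept from 200 genes and 500 UMIs upwards and below 10% of UMIs from mitochondrial genes, which left 7433 of 8807 barcodes in the h219-LLG library and 5607 of 6133 in the control library, with median depths of 5050 and 5796 UMIs. The 2 libraries shared 13 barcodes. The barcodes that did not pass held 3 Jchain UMIs in the h219-LLG library and 1 in the control library. Cells were split by the rule into plasma-like cells (at least 5 Jchain UMIs), B cells (at least 2 UMIs of Cd79a, a signaling chain of the B cell receptor, and fewer than 5 of Jchain) and all other cells. Barcodes that scored like simulated doublets were kept, because the score marked all 6 plasma-like cells of the control library and 2 of the 7 in the h219-LLG library. This choice was made after the values were seen, and it sets the direction of the first comparison below.

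Jchain was concentrated in a handful of cells. The h219-LLG library held 1908 Jchain UMIs in its kept cells and the control library held 6524, which came to 40.5 CPM (UMIs scaled to 1000000 UMIs of the cells counted; 38.7 to 42.3) and 165 CPM (161 to 169). The ratio of h219-LLG over control was 0.245 (0.233 to 0.258), a log2 difference of -2.03, and 35 of 12437 genes with at least 50 UMIs had a lower ratio. Of those 12437 genes, 5.44% were lower by at least 1.5-fold. A Jchain UMI was found in 41 cells (0.552%, 0.396 to 0.748) of the h219-LLG library and in 46 cells (0.820%, 0.601 to 1.09) of the control library. The gap in the totals was thus a gap in a few very high cells. In the h219-LLG library the top 2 cells held 94.1% of all Jchain UMIs and the highest alone held 55.0%. In the control library the top 5 cells held 97.7% and the highest 28.8%. Without the highest cell of each library the ratio was 0.155. Without the 1 control cell that also carried T cell transcripts, described below, it was 0.344.

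With the doublet-scored barcodes removed, the order of the libraries turned over. The h219-LLG library then held 1146 Jchain UMIs in 6909 cells (28.0 CPM) and the control library 38 in 5332 cells (1.06 CPM), a ratio of 26.4 (19.1 to 37.5). None of the control cells with at least 5 Jchain UMIs was left, against 5 in the h219-LLG library. Of those 5, only 1 had over 600 Jchain UMIs, and it alone held 1050 of the 1146. The turned ratio thus rests on 1 cell, and its interval does not cover that. The doublet score of that cell was 0.845, under the mark, and the scores of the marked control cells were 0.874 to 0.928.

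**Figure D1:**
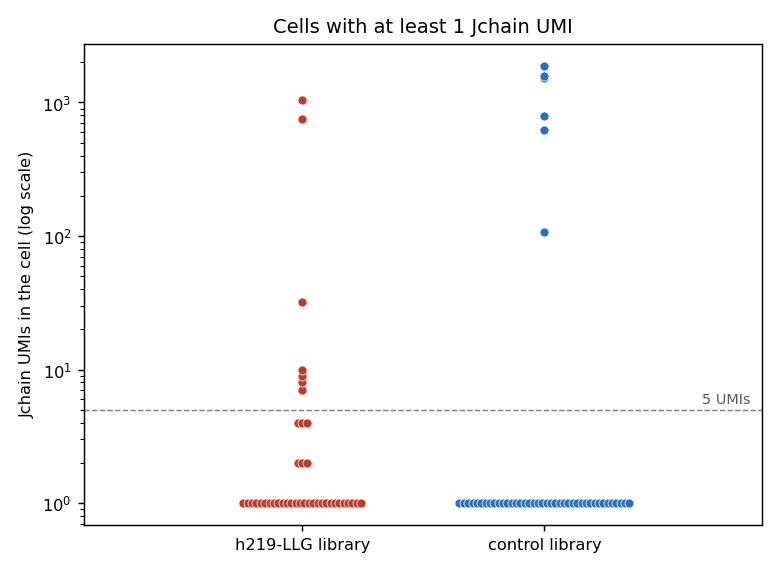
Jchain UMIs in every kept cell with at least 1, 1 point a cell, on a log scale, for the h219-LLG library (left) and the control library (right). The dashed line marks the 5 UMIs of the plasma-like rule. The h219-LLG library has 2 cells over 600 UMIs and a tail of cells between 2 and 32, and the control library has 5 cells over 600, 1 at 107 and otherwise only single UMIs.

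The plot of UMIs per cell showed a different shape in each library. Among h219-LLG cells, 28 had 1 Jchain UMI, 3 had 2 and 3 had 4, and the remaining 7 had 7, 8, 9, 10, 32, 746 and 1050. Among control cells, 40 had 1 Jchain UMI and the remaining 6 had 107, 622, 786, 1515, 1574 and 1880. The control library therefore had no cell between 1 and 107 UMIs, and the threshold of 5 fell in a wide gap there. In the h219-LLG library it fell between cells with 4 and with 7. The rule gave 7 plasma-like cells of 7433 (0.0942%, 0.0379 to 0.194) in the h219-LLG library and 6 of 5607 (0.107%, 0.0393 to 0.233) in the control library, a ratio of shares of 0.880 (0.296 to 2.62), which was 1.26 with a limit of 3 Jchain UMIs and 0.503 with a limit of 10.

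The plasma-like label held for some of these cells and not for others. It was checked against 6 plasma markers that the rule did not use, Mzb1 (an endoplasmic reticulum cochaperone of antibody assembly), Xbp1, Prdm1, Sdc1, Derl3 (of the degradation machinery of the endoplasmic reticulum) and Tnfrsf17. Both h219-LLG cells over 600 Jchain UMIs carried all 6. Of the 5 control cells over 600, 3 carried all 6 and the other two carried 5. The 4 h219-LLG cells with 7 to 10 Jchain UMIs carried 1 or 2 of the 6, and Derl3, Sdc1, Prdm1 and Tnfrsf17 were at 0 in all 4. By these markers those 4 cells are called here low-Jchain B cells rather than plasma-like cells.

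The h219-LLG cell with 1050 Jchain UMIs had 12724 UMIs in all, so that Jchain alone was 8.25% of them. It held 52 Mzb1, 16 Xbp1 and 12 Tnfrsf17 UMIs and none of Ms4a1 or Pax5. The h219-LLG cell with 746 Jchain UMIs had 19340 UMIs (3.86% Jchain), 102 of Mzb1, 24 of Xbp1, 18 of Tnfrsf17 and 2 of Ms4a1. Both thus paired a high J chain level with the secretory markers and with low or absent CD20. The doublet score marked the second and not the first. Over 14 marker genes of T, NK, myeloid, neutrophil, plasmacytoid dendritic and melanocytic cells, the first held 1 UMI and the second held 4.

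The 5 control cells over 600 had 1880, 1574, 1515, 786 and 622 Jchain UMIs, which were 5.32%, 4.94%, 12.2%, 4.32% and 3.54% of each cell's UMIs. Their Mzb1 UMIs, in the same order, were 90, 109, 99, 90 and 209, and their Tnfrsf17 UMIs were 9, 12, 4, 13 and 25. Ms4a1 and Pax5 were at 0 in all 5, and also in the control cell with 107 Jchain UMIs. The cell with 1880 Jchain UMIs also held 33 UMIs of Cd3d, Cd3e and Cd3g, signaling chains of the T cell receptor complex, in 35337 UMIs. The other 4 held 0 of these. Over the 14 marker genes of other kinds, Cd3 included, the 5 cells held 35, 6, 0, 1 and 1 UMIs, in the order above. The control cell with 107 Jchain UMIs (1.56% of 6840) had 18 Xbp1, 4 Prdm1 and 4 Irf4 UMIs with only 2 of Mzb1 and 0 of Tnfrsf17, at 8.77% mitochondrial UMIs, close to the limit of 10%.

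The remaining h219-LLG cells stood apart from these. The cell with 32 Jchain UMIs was the deepest of the 7 at 55328 UMIs, and it held 40 Mzb1 UMIs and 40 of the proliferation gene Mki67 beside 43 of Ms4a1, 27 of Cd79a and 9 of Pax5. It carried 4 of the 6 plasma markers and 0 of Tnfrsf17. The cells with 10, 9, 8 and 7 Jchain UMIs had 2, 14, 10 and 6 Ms4a1 UMIs and 7, 11, 12 and 13 Cd79a UMIs. Their depths were between 6815 and 8044 UMIs, and Jchain was 0.0957% to 0.134% of them. Transcripts of Cd79a and CD20 were thus present in all 4. Mki67 was found in all 4 as well, at 6 UMIs in sum (203 CPM). Among h219-LLG B cells with 0 Jchain UMIs it was found in 29 of 2496 (10.5 CPM). Mzb1 was at 912 CPM in the 4 cells and 249 CPM in those B cells, whose median depth was lower at 3630 UMIs. What sets these 4 cells apart was not tested.

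**Figure D2:**
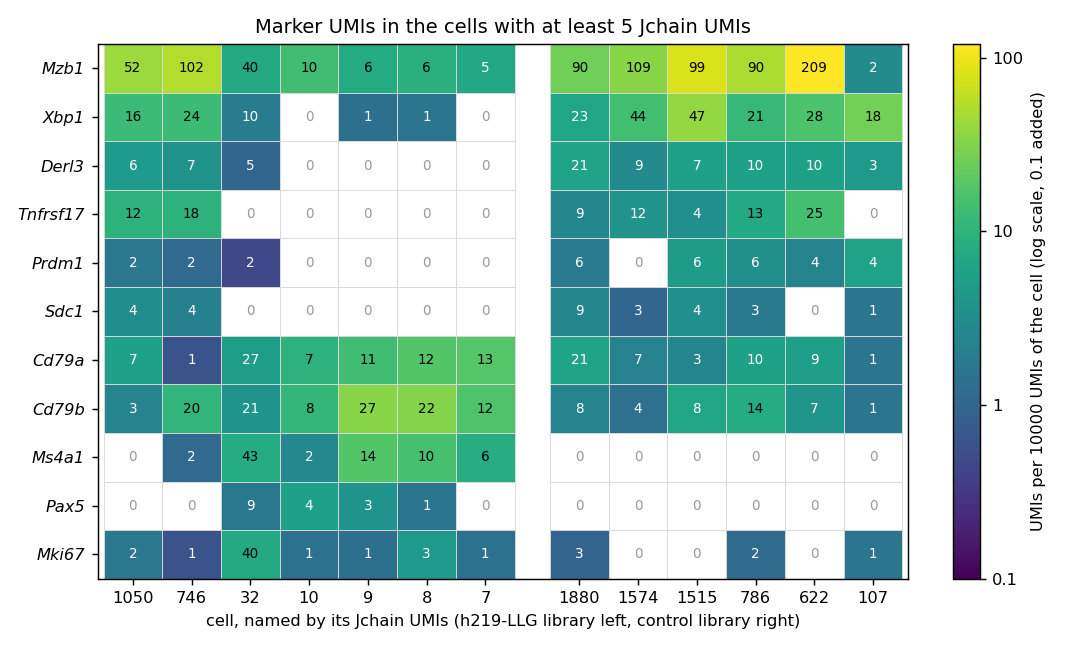
UMIs of 11 marker genes (rows) in each cell with at least 5 Jchain UMIs (columns, named by their Jchain UMIs), with the 7 h219-LLG cells left and the 6 control cells right. Numbers are UMIs, colors are UMIs per 10000 UMIs of the cell on a log scale, and white is 0. Ms4a1 and Pax5 are at 0 in the 6 control cells and present in most h219-LLG cells with 7 to 32 Jchain UMIs, where Tnfrsf17 and Sdc1 are at 0.

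Summed over all cells that met the rule, Jchain was lower in the h219-LLG library, whose plasma-like cells include the 5 with 7 to 32 UMIs. The h219-LLG plasma-like cells held 1862 Jchain UMIs (15914 CPM, 15200 to 16654) and the control plasma-like cells held 6484 (53070 CPM, 51786 to 54377), a ratio of 0.300 (0.285 to 0.316). Jchain chose these cells, so this is a description. Of 615 genes with at least 50 UMIs in these cells, 49.6% were past 1.5-fold in either direction and 25.2% were lower by it, and 27 had a lower ratio than Jchain. In the cells over 600, which Jchain chose as well, the summed levels lay together. Jchain was 5.60% of the 32064 UMIs in the 2 h219-LLG cells and 5.53% of the 115339 UMIs in the 5 control cells, a ratio of 1.01 (0.961 to 1.07), and it was the most abundant of the genes counted in both. Without the control cell that held Cd3 UMIs, the control value was 5.62% and the ratio 0.996 (0.943 to 1.05). Single cells ranged from 3.86% to 8.25% in the h219-LLG library and from 3.54% to 12.2% in the control library, a spread that the intervals of these ratios do not cover. The share of such cells was 2 of 7433 (0.0269%, 0.00326 to 0.0972) in the h219-LLG library and 5 of 5607 (0.0892%, 0.0290 to 0.208) in the control library. The ratio of the shares was 0.302 with an interval of 0.0586 to 1.55, so a difference in either direction was not detectable at this number of cells. The limit of 600 was chosen after the gap in the values was seen.

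The other plasma markers overlapped with Jchain in part. Cells with 5 or 6 of the 6 markers numbered 2 in the h219-LLG library and 6 in the control library, and the lowest Jchain count among them was 746 in the h219-LLG library and 107 in the control library. Cells with at least 50 Mzb1 UMIs numbered 2 in the h219-LLG library and 5 in the control library, and all had over 600 Jchain UMIs. At 20 or more Mzb1 UMIs, 1 of 4 h219-LLG cells and 0 of 5 control cells had no Jchain UMI, and at 10 or more, 12 of 19 h219-LLG cells and 4 of 9 control cells had none. Those 4 control cells were all plasmacytoid dendritic cells, and 14 of the 19 h219-LLG cells were B cells. Mzb1 was found in 58.4% and 50.8% of B cells of the h219-LLG and control libraries. The shares of plasmacytoid dendritic cells were 56.5% and 63.2%, so Mzb1 alone does not mark plasma cells here. In the opposite direction, 4 h219-LLG cells and 3 control cells carried 4 of the 6 markers without reaching 5 Jchain UMIs, and Jchain was at 0 in all 7. Their median depths were 47802 and 12299 UMIs, against medians of 5050 and 5796 over all kept cells of the h219-LLG and control libraries. By kind, the 4 h219-LLG cells were B cells, and the 3 control cells were 2 B cells and 1 plasmacytoid dendritic cell. Across the cell kinds of both libraries (16 points, which share their depth and the few plasma-like cells), the genes whose log2(CPM + 1) followed Jchain most closely were Tnfrsf17 (Pearson r = 0.992), Derl3 (r = 0.973) and Cd2bp2, a splicing-related protein (r = 0.958). Tnfrsf17 had 30 UMIs in plasma-like cells of the h219-LLG library and 63 in those of the control library, of 96 in all kept cells of both.

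Around the J chain, genes of antibody folding and secretion were higher in the cells over 600 than in B cells of the same library, and B cell identity genes were lower. The lists were chosen with earlier results of these data known. A gene was called past 1.5-fold only where a bound at 3 UMIs, used for any lower count, was itself past it. Of 16 secretion genes with at least 50 UMIs in the 2 kinds together, 15 were higher by that fold in the h219-LLG cells, with a median log2 ratio of 4.12. In the control cells 16 of 17 were higher and 1 was lower, with a median log2 ratio of 4.32. Over all genes, 11.0% of 8982 were called higher and 4.31% lower in the h219-LLG cells, and 22.3% of 8132 higher and 17.2% lower in the control cells. Most genes had too few UMIs in so few cells to be called, with medians of 1 and 3 UMIs a gene in the h219-LLG and control cells. Among genes with at least 3 UMIs expected there at the B cell level, the median ratio was 0.858 over 1376 genes in the h219-LLG library and 0.857 over 4256 genes in the control library, with 17.5% and 20.9% called higher and 28.1% and 32.8% called lower.

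Each of the secretion genes named here other than Ero1lb was above the B cell level in both libraries, by folds that differed between them. Fkbp11, a prolyl isomerase of the endoplasmic reticulum, was 60.8-fold (31.0 to 110) above B cells in the h219-LLG cells and 112-fold (75.0 to 168) in the control cells. Txndc5, a protein disulfide isomerase, was 39.0-fold above B cells in the h219-LLG cells and 49.4-fold in the control cells. Mzb1 was 19.1-fold (16.1 to 22.5) and 28.9-fold (26.3 to 31.8) above B cells in the h219-LLG and control cells. Derl3 was at 57 UMIs in the control cells and 5 in all control B cells, an 876-fold ratio (354 to 2802), and at 13 UMIs in the h219-LLG cells and 5 in all h219-LLG B cells. The chaperone Hspa5 (BiP), which binds unassembled heavy chains, was the second lowest of the list at 3.94-fold in the h219-LLG cells and 5.47-fold in the control cells. The oxidase Ero1lb had the lowest ratio of the list in both libraries, 1.03 (0.279 to 2.64) in the h219-LLG cells and 0.451 (0.194 to 0.892) in the control cells.

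Of the plasma cell transcription factors and markers, 5 of 7 were called higher in the h219-LLG cells and 6 of 7 in the control cells, with median ratios of 16.3 and 20.1. In the h219-LLG cells 2 of the 7 genes, Irf4 and Ly6k, were set to 3 UMIs, and the bound of Ly6k (17.7) lay above the median. The 7 genes with at least 50 UMIs included Ly6k and not Tnfrsf17 in the h219-LLG library, and Tnfrsf17 and not Ly6k in the control library. Xbp1 was 31.1-fold and 30.4-fold above B cells in the h219-LLG and control cells, and Sdc1 was 44.9-fold and 21.2-fold above. Tnfrsf17 had 30 UMIs in the h219-LLG cells, 63 in the control cells and 0 in all B cells of either library, at least 3651-fold and 1614-fold higher with B cells set to 3 UMIs. Slamf7, a surface receptor of plasma cells, was 16.3-fold (9.71 to 25.7) above B cells in the h219-LLG cells and 7.01-fold (4.91 to 9.73) in the control cells. Cd28 was 3.45-fold (1.12 to 8.10) above B cells in the h219-LLG cells and 12.0-fold (7.64 to 18.3) in the control cells. It is a T cell gene too, the control cells include the cell with Cd3 UMIs, and the part of that cell was not tested. Irf4, which drives plasma cell differentiation, was measured in both libraries and called higher in neither. It was at 0.604 (0.0731 to 2.19) and 0.671 (0.334 to 1.21) of the B cell level in the h219-LLG and control cells. The h219-LLG value rests on 2 UMIs (0.907 with 3 UMIs), and both intervals reach above 1, so no direction is read from them. Ly6k had 0 UMIs in both sets of cells.

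Of 12 B cell identity genes, 10 were called lower and none higher in the h219-LLG cells, and 11 lower and 1 higher in the control cells. The median ratios were 0.317 and 0.130, with 8 and 6 of the 12 genes set to 3 UMIs. Pax5, which represses Jchain in B cells, had 0 UMIs in the cells over 600 of either library, against 4406 in h219-LLG B cells and 3550 in control B cells. Its bound was 0.249 of the B cell level in the h219-LLG cells and 0.0650 in the control cells. Ebf1 fell to 0.108 (0.0351 to 0.253) of the B cell level in the h219-LLG cells and to 0.0248 (0.00804 to 0.0578) in the control cells. Pou2af1, the octamer coactivator OCA-B, was the gene called higher, at 1.68 (1.18 to 2.31) in the control cells, and at 0.414 (0.0853 to 1.21) in the h219-LLG cells.

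Of 16 antigen receptor genes, 6 were called lower and 1 higher in the h219-LLG cells, and 12 lower and 1 higher in the control cells. The median ratio was 0.873 in the h219-LLG cells, close to that of all genes with at least 3 expected UMIs (0.858) and with 12 of the 16 genes set to 3 UMIs, and 0.282 in the control cells. Cd79a was at 0.161 (0.0696 to 0.318) and 0.247 (0.183 to 0.326) of the B cell level in the h219-LLG and control cells, while the tetraspanin Cd81 was at 6.35 (4.01 to 9.56) and 1.59 (0.955 to 2.50). Of 6 follicular genes, 4 were called lower in the h219-LLG cells and 5 in the control cells, and none higher. Ccr7, the lymph node homing receptor, had 0 UMIs in the h219-LLG cells and was at 0.0247 of the B cell level in the control cells. Of the marginal zone and B-1 genes, 1 of 9 was called higher and 1 lower in the h219-LLG cells, and 2 of 7 higher and 3 lower in the control cells. Of the germinal center and class switching genes, 1 of 6 was called higher in the h219-LLG cells, and 1 of 5 higher and 1 lower in the control cells. Of 2 measured genes of the pre-B list, none was called in the h219-LLG cells and 1 was called lower in the control cells.

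**Figure D3:**
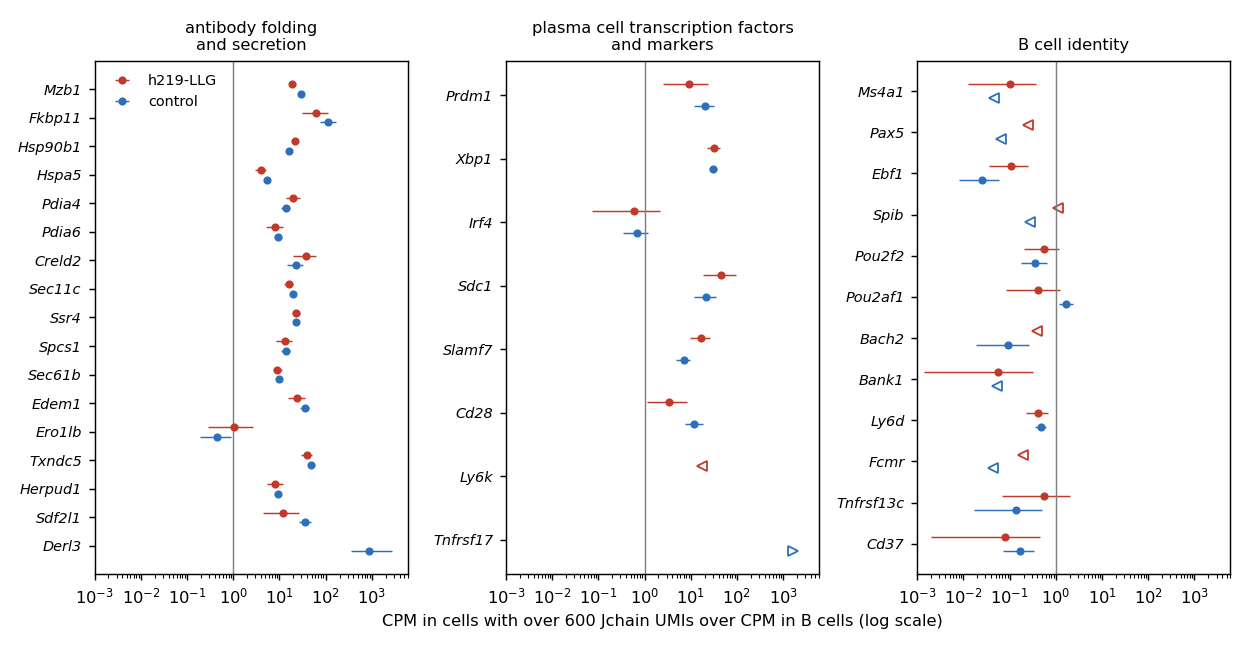
CPM in cells with over 600 Jchain UMIs over CPM in B cells of the same library (log scale), for the genes with at least 50 UMIs in 3 lists, for the h219-LLG library (upper point, 2 cells against 2513) and the control library (lower point, 5 cells against 1778). Bars are counting intervals, and open triangles are bounds for genes at 0 in 1 of the kinds. Secretion genes lie right of 1 except Ero1lb in the control cells, and B cell identity genes lie left of 1 except Pou2af1 in the control cells and the bound of Spib in the h219-LLG cells.

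Ordinary B cells held very little Jchain. B cells were 2513 of 7433 cells (33.8%) in the h219-LLG library and 1778 of 5607 (31.7%) in the control library. The B label held by markers that the rule did not use, with an Ms4a1 UMI in 82.3% of B cells of the h219-LLG library and 83.4% of the control library, against 1.08% and 0.667% of T cells. B cells held 28 Jchain UMIs (2.39 CPM, 1.59 to 3.46) in the h219-LLG library and 16 (1.80 CPM, 1.03 to 2.93) in the control library. The ratio of h219-LLG over control was 1.33 (0.693 to 2.62), but 0.760 (0.356 to 1.62) with the plasma-like limit at 3 Jchain UMIs and 2.46 (1.38 to 4.61) with it at 10. The 44 UMIs together lay under the minimum of 50, so Jchain was not counted as past or within 1.5-fold, where 14.6% of 9794 genes were past it in either direction. A Jchain UMI was found in 17 h219-LLG B cells (0.676%, 0.395 to 1.08) and 16 control B cells (0.900%, 0.515 to 1.46), at median depths of 3633 and 4320 UMIs. In the other cells, at 5893 and 6862 UMIs, the shares were 0.346% and 0.628% in the h219-LLG and control libraries. With each cell thinned to 1000 UMIs, 3 of 2509 h219-LLG B cells (0.120%) and 1 of 1778 control B cells (0.0562%) had one, beside 3 of 4827 (0.0622%) and 2 of 3709 (0.0539%) of the other cells. These are counts of 1 to 3, and no order is read from them. Of B cells, 15.0% in the h219-LLG library and 6.75% in the control library held at least 1 Cd3d, Cd3e or Cd3g UMI. The myeloid gene Lyz2 was at 620 CPM in h219-LLG B cells (12.5% of cells) and 195 CPM in control B cells (6.47%). The neutrophil gene S100a8 was at 21.1 CPM in h219-LLG B cells and 1.47 CPM in control B cells, while the melanocyte gene Dct was at 5.98 and 12.6 CPM. The part of such mixed barcodes in these values, and in the B cell gene lists below, was not tested.

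Per UMI, h219-LLG B cells were 4.69-fold (2.51 to 9.01) above the other cells of their library and control B cells were 2.29-fold (1.14 to 4.50) above theirs. Without the 3 h219-LLG B cells with 4 Jchain UMIs, a choice made after the values were seen, the h219-LLG value was 2.69-fold (1.28 to 5.59). All 16 control B cells with Jchain had a single UMI. Of the 17 h219-LLG B cells, 12 had 1 UMI, and 5 had 2 or 4. Counting also the cells just over the threshold of 5, 7 cells with at least 2 Cd79a UMIs held 4 to 10 Jchain UMIs in the h219-LLG library (0.278% of 2519 such cells, 0.112 to 0.572). The control library had 0 of 1783, with an exact 95% upper limit of 0.207% (0.168% at a floor of 3 cells), so the intervals overlapped. This range was chosen after the values were seen. The 7 cells held 46 Jchain UMIs in all and 5 to 10 Mzb1 UMIs each, Ms4a1 was found in all 7, and Derl3 and Tnfrsf17 in none. At the level of the other cells of their library, a cell of their depth would hold 0.00520 Jchain UMIs on average. The 7 cells were chosen by their Jchain UMIs and so lie above this level by that choice, and nothing is concluded from the gap.

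By subset, B cells with a UMI of Fcer2a (CD23, a follicular marker) held 9 Jchain UMIs in 1576 h219-LLG cells (1.20 CPM, 0.550 to 2.28) and 13 in 1171 control cells (2.22 CPM, 1.18 to 3.80). B cells without one held 19 in 937 h219-LLG cells (4.50 CPM, 2.71 to 7.02) and 3 in 607 control cells (0.996 CPM, 0.205 to 2.91). In the h219-LLG library, 3 Fcer2a-negative cells with 4 Jchain UMIs each, just under the threshold of 5, held 12 of the 19 UMIs. Without them the Fcer2a-negative level was 1.67 CPM (0.673 to 3.45), which overlaps the Fcer2a-positive level. The shares of h219-LLG cells with a UMI overlapped as well, at 1.07% (0.513 to 1.95) without Fcer2a and 0.444% (0.179 to 0.913) with it, and the control levels overlapped, so no order of the subsets is read from these counts. Fcer2a-negative cells with a UMI of Cd9, a marker shared by marginal zone and B-1 cells, held 2 Jchain UMIs in 72 h219-LLG cells and 0 in 45 control cells.

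The genes that accompany Jchain were also compared in B cells between h219-LLG and control, where 11.3% of 9794 genes were higher and 3.32% lower by at least 1.5-fold and the median ratio of all genes was 1.06. Of 16 secretion genes, 8 had a ratio over 1 and none was past 1.5-fold, with a median ratio of 1.02. Mzb1 was at 251 CPM in h219-LLG B cells and 179 CPM in control B cells, a ratio of 1.40 (1.32 to 1.49), and Txndc5 had a ratio of 1.34 (1.18 to 1.53). At the low end, Herpud1, of the degradation pathway of the endoplasmic reticulum, had a ratio of 0.700 (0.645 to 0.760) and Hspa5 of 0.732 (0.705 to 0.759). The list thus held small differences in both directions.

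Of the 7 plasma cell genes with enough UMIs in B cells, 2 were past 1.5-fold, both higher. Ly6k had 62 UMIs in h219-LLG B cells and 6 in control B cells (ratio 7.83, 3.40 to 22.1), and Cd28 had 529 and 166 (ratio 2.41, 2.02 to 2.89). Cd28 is also a T cell gene, and it stood beside the larger share of h219-LLG B cells with Cd3 UMIs. Sdc1 (0.714, 0.501 to 1.02) and Irf4 (0.726, 0.671 to 0.786) had the lowest ratios of the list. The median ratio of the list was 0.862.

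Of 6 measured germinal center genes, 1 was past 1.5-fold higher and 3 lower. Mki67 had 131 UMIs in h219-LLG B cells and 31 in control B cells (ratio 3.20, 2.15 to 4.90). These UMIs lay in few cells. Among B cells with 0 Jchain UMIs, 29 of 2496 h219-LLG cells (121 UMIs) and 14 of 1762 control cells (22 UMIs) had one. Bcl6, the master factor of germinal center B cells, was at 26.6 CPM in h219-LLG B cells and 44.1 CPM in control B cells (ratio 0.603, 0.517 to 0.701), and Ung, a uracil glycosylase of class switching, had a ratio of 0.652 (0.497 to 0.853). Fas had a ratio of 0.664 (0.506 to 0.868) and Apobec1 of 1.09 (0.938 to 1.27).

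The remaining lists held few genes past 1.5-fold in B cells. Of 16 antigen receptor genes none was, with a median ratio of 0.995. Cd79b at 1.19 (1.16 to 1.23) and Vav1 at 1.19 (1.04 to 1.37) had the highest ratios, and Cd72 at 0.734 (0.683 to 0.789) and Ptpn6, the phosphatase SHP-1, at 0.812 (0.763 to 0.865) the lowest. Of 12 identity genes none was past it, with a median ratio of 0.943, with Pou2f2 at 1.26 (1.20 to 1.33) and Pou2af1 at 1.15 (1.08 to 1.22) highest and Ebf1 at 0.823 (0.805 to 0.841) and Fcmr at 0.825 (0.795 to 0.857) lowest. Of 6 follicular genes, Cxcr5 (0.638, 0.576 to 0.707) and Ccr7 (0.659, 0.635 to 0.683), receptors for follicle and lymph node chemokines, were lower, while Cd55 had a ratio of 1.12 (1.07 to 1.17). Of 9 marginal zone and B-1 genes, Zbtb32 (5.11, 2.42 to 12.4), Cd5 (2.19, 1.69 to 2.88) and Myof (1.70, 1.19 to 2.46) were higher, and Bhlhe41 (0.833, 0.673 to 1.03) and Dtx1 (0.963, 0.852 to 1.09) had the lowest ratios. Cd5 is expressed by T cells too. Neither of the 2 measured pre-B genes, Il7r at 1.08 (0.968 to 1.20) and Cd24a at 0.877 (0.822 to 0.936), was past it, and the surrogate light chain gene Igll1 had 0 UMIs in B cells of both libraries.

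Outside B and plasma-like cells, Jchain was at the level of single UMIs. The other cells held 18 Jchain UMIs in 4913 h219-LLG cells (0.510 CPM, 0.302 to 0.806) and 24 in 3823 control cells (0.787 CPM, 0.504 to 1.17). The ratio was 0.648 (0.331 to 1.24), under the minimum of 50 UMIs, while 14.1% of 12020 genes were past 1.5-fold in either direction. All but 1 of these cells had a single UMI. The level of the other cells thus differed by less than the level of all cells, where the ratio was 0.245.

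By kind, T cells held 9 Jchain UMIs in 3531 h219-LLG cells (0.405 CPM) and 20 in 2699 control cells (0.998 CPM), a ratio of 0.405 (0.162 to 0.931) on fewer than 50 UMIs. NK cells held 1 UMI in 96 h219-LLG cells and 1 in 150 control cells. Myeloid cells held 5 in 579 h219-LLG cells (0.896 CPM, 0.291 to 2.09) and 1 in 336 control cells (0.302 CPM, 0.00765 to 1.68). Plasmacytoid dendritic cells, which are secretory too, held 0 UMIs in 46 h219-LLG cells (exact upper limit 7.93 CPM, and 6.45 CPM at the floor of 3 UMIs). They held 2 in 114 control cells (1.42 CPM, 0.172 to 5.13). Melanocytic cells held 0 in 21 h219-LLG cells and 0 in 17 control cells, and cells of no class held 3 in 640 h219-LLG cells and 0 in 507 control cells. Ordered by level, B cells followed the plasma-like cells in both libraries (NK cells came next in the h219-LLG library and plasmacytoid dendritic cells in the control library), and from B cells downwards the counting intervals of neighbors in the order overlapped.

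**Figure D4:**
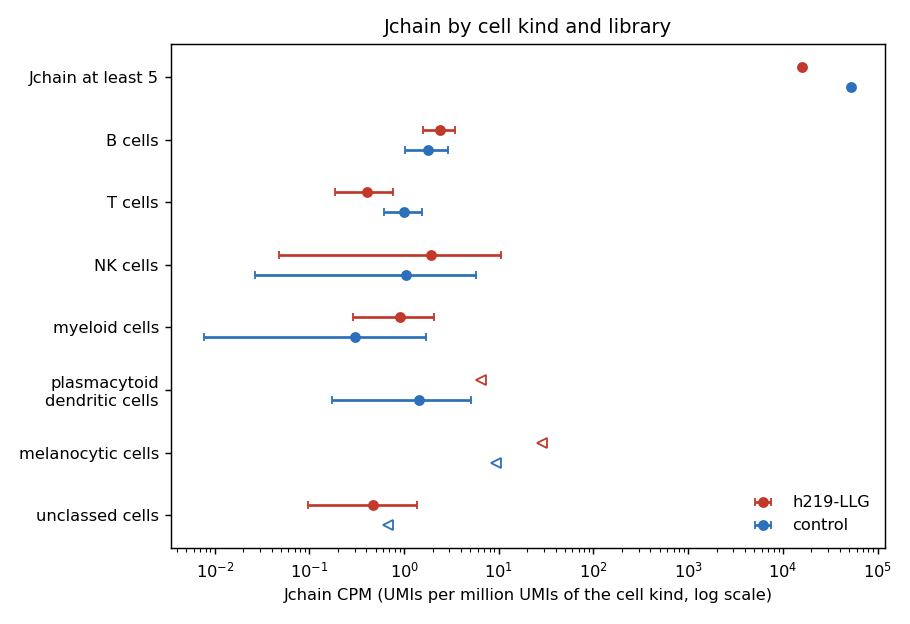
Jchain CPM by cell kind (log scale), with exact Poisson intervals, for the h219-LLG library (upper point) and the control library (lower point). Open triangles mark a count of 0, drawn at the floor of 3 UMIs. Cells with at least 5 Jchain UMIs sit at 15914 CPM in the h219-LLG library and 53070 CPM in the control library, and all other kinds with a UMI lie between 0.302 and 2.39 CPM.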

How the data were processed

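Each deposited table holds unnormalized UMI counts for every gene in every barcode. The authors prepared single cell 3′ v2 libraries and counted them with Cell Ranger 5.0.0 against mm10 (tool and build per the file headers and the submitters' processing notes). Only barcodes called as cells were present, with the annotation release not given in the sources used here. Totals were 48834592 UMIs in the h219-LLG library and 40339654 in the control library.

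Barcodes below 200 genes or 500 UMIs, or with 10% or more of their UMIs from mitochondrial genes, were left out. Kinds were set by marker UMIs, in this order: plasma-like (Jchain at least 5), B (Cd79a at least 2), plasmacytoid dendritic (Siglech at least 2), melanocytic (Pmel, Mlana and Dct together at least 5, no Ptprc), T (Cd3d, Cd3e and Cd3g together at least 2, Lyz2 under 5), NK (Ncr1 and Klrb1c together at least 2, Cd3 under 2) and myeloid (Lyz2, Csf1r and Cd68 together at least 5, Cd3 under 2). UMIs were summed per library and kind and divided by all UMIs of the kind (CPM). Intervals are exact Poisson for CPM, exact Clopper-Pearson for shares, a binomial split for CPM ratios and a log-scale interval for share ratios, all at 95%. Counts under 3 were set to 3, and a fold was called only where that bound was past it. The doublet score compared each cell with simulated pairs, 2 a cell, and marked 524 h219-LLG cells (7.05%) and 275 control cells (4.90%), 0.8% for each 1000 barcodes. Removal had been intended and was made the alternative after it was seen to mark the plasma-like cells. The other alternatives were cell filters, marker limits, TMM factors (edgeR 4.0.16), median-of-ratios factors, means over cells and left-out cells. The interval method was tested on simulated data.

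The members and lists were chosen with earlier results of these data known. Named genes were the member measured, the 2 highest and 2 lowest ratios of each list, and the 3 genes most correlated with Jchain, and others were chosen after their values were seen. Some genes that this rule names are not reported here. Heavy and light chain results were not analysed here. Analyses used Python 3.11.15, numpy 2.4.6, scipy 1.17.1, pandas 2.3.3 and scikit-learn 1.9.0.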

Additional observations from a re-analysis of the deposited data

How the results depend on the processing

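Of 165 recomputed values under the alternatives, 139 lay within the counting interval of the value reported or, for counts of members, equalled it. Some of the 139 lay on the other side of 1. Of the rest of the 165, 22 lay outside the interval or changed the count and 4 turned round, and the cause was not tested. Part of the 139 could not have changed, so their number does not measure stability. The Jchain ratio over all cells did not depend on the Cd79a or Jchain limits, which only sort cells into kinds. The share and the Jchain ratio of plasma-like cells did not depend on the Cd79a limit. In B cells and other cells, Jchain could not be called past 1.5-fold while its UMIs were under the minimum. The ratio of B cell shares (1.07) was 0.999 with no cell filter and 0.925 with at least 1000 UMIs and under 5% mitochondrial UMIs. The Jchain ratio over all cells (0.245) was 0.283 under that stricter filter, 26.4 with doublet-scored barcodes removed, 0.310 as a mean over cells, 0.155 without the top cell of each library and 0.344 without the control cell with Cd3 UMIs. In plasma-like cells (0.300) it was 0.348 under the stricter filter, 0.222 and 0.365 with at least 3 and 10 Jchain UMIs, 0.280 with TMM factors, 0.339 as a mean over cells and 0.147 without the top cells. The B cell ratio (1.33) was 0.760 and 2.46 with at least 3 and 10 Jchain UMIs, 2.09 under the stricter filter and 1.03 as a mean over cells. The ratio of plasma-like shares (0.880) was 1.26 and 0.503 with at least 3 and 10, 0.721 under the stricter filter and 1.06 without the control cell with Cd3 UMIs. Limits of 30 and 600 Jchain UMIs and the cell with Cd3 UMIs were added after the data were seen. The plasma-like ratio was 0.394 at 30 and 1.01 at 600, the ratio of plasma-like shares 0.377 and 0.302, the B cell ratio 2.93 and 4.42, and the ratio in other cells (0.648) was 0.119 at 600, since cells under the limit then join those kinds. Jchain was past 1.5-fold in B cells (1 member against 0) with a limit of 10, 30 or 600, in other cells (1 against 0) with a limit of 600 or with no minimum of UMIs, and was no longer past it in plasma-like cells (0 against 1) at 600. With cells thinned to 1000 UMIs, 0.0622% of other h219-LLG cells and 0.0539% of other control cells had a Jchain UMI. No ratio in plasma-like cells was possible with doublet-scored barcodes removed, since no control cell was left. The alternatives for class switching, light chains and Igkc were not run. No paired analysis was possible because each group has 1 library.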
